A study of Mus musculus with 383 samples.

Results

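The cytosolic ribosomal protein genes are the genes of the proteins that, together with ribosomal RNA, make up the large and small subunits of the ribosome. They were taken by symbol: Rpl or Rps followed by a number or a letter, plus Rplp0, Rplp1 and Rplp2, leaving out the Rps6k kinases and the pseudogenes with a -ps suffix. The rule found 93 of the 49585 genes in the table, and 91 of them had a read in the cells used here. Of the 93, 43 are large subunit genes, 31 are small subunit genes and 3 encode the P stalk, the arm of the large subunit that recruits elongation factors. Another 15 are relatives or copies of these genes, and 1 (Rps19bp1) encodes a protein that binds a ribosomal protein and is not itself one.

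The cells came from mouse skin squamous cell carcinomas and were sequenced singly by Smart-seq2, which amplifies full-length polyadenylated cDNA from each cell without molecular identifiers. The donors of both populations carried Lgr5CreER, a tamoxifen-inducible Cre recombinase driven from the promoter of Lgr5 (a stem cell gene of the hair follicle), together with Cre-dependent engineered alleles that include p53fl/fl and Rosa26-YFP+/+. Tumour cells positive for YFP, the mark of recombination, were sorted by the epithelial surface protein Epcam: 70 wells held 1 Epcam-positive cell and 310 held 1 Epcam-negative cell, and no other treatment or age is given in the labels. As controls, 2 wells received 0 cells and 1 well of the Epcam-negative sort received 50.

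Quality filters left 62 of the 70 Epcam-positive cells and all but 47 of the 310 Epcam-negative cells, with 109743 to 730528 and 104330 to 900492 gene reads per cell (medians 413142 and 414731). Summed over each population, Epcam stood at 1069 counts per 1000000 gene reads (CPM) in the Epcam-positive sort against 22.7 CPM in the Epcam-negative sort. The basal keratin Krt14 stood at 13311 against 1836 CPM and the mesenchymal filament Vim at 592 against 5809 CPM, so both sorts carried the markers of their labels. Here and throughout, where 2 values are given as a pair, the Epcam-positive one comes first. Keratinocyte markers were not absent from the Epcam-negative sort: the summed level of the 8 markers had a median of 172.9 CPM and a highest value of 69882 CPM per cell. Of 14 immune markers, Adgre1 had 0 reads in both populations and Ptprc, Itgam and Csf1r had 0 in the Epcam-positive one, and the list summed to 102.05 and 31.6 CPM. The most abundant of them in Epcam-positive cells were H2-Ab1 (41.7 and 4.01 CPM), Cd74 (30.2 and 3.97 CPM) and Cd68 (15.3 and 7.99 CPM), while Cd3e stood at 0.604 and 6.18 CPM, and the highest cells reached 863 and 728 CPM for the list. The 8 endothelial markers summed to 18.1 and 5.64 CPM, with Tek and Emcn at 0 in both, Pecam1 at 13.3 and 4.60 CPM, Cdh5 at 2.29 and 0.0373 CPM and Tie1 at 2.38 and 0.317 CPM. The labels name no animal, so each population is 1 sample, cells are not replicates, and no test between the populations is possible. Epcam-positive cells filled plate rows A to C and Epcam-negative cells rows D to P, so the population and the place on the plate cannot be told apart.

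Ribosomes are built from equal numbers of most of their proteins, and mammalian cells make those proteins from messenger RNAs that begin with a terminal oligopyrimidine (TOP) tract, through which mTOR signalling and the protein Larp1 control their translation. The messages are short and abundant, and during evolution many of them were copied back into the genome as processed pseudogenes. A 50-base read from such a message can therefore match several places, and how the counting treated reads with several matches is not given in the sources used here.

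That property is visible in the sequences themselves. The first 50 coding bases of 3 members are printed here because they stand at opposite ends of this sharing, with the start codon in capitals. They were read from the GENCODE vM21 transcripts of the mouse build GRCm38, which also give the gene positions.
Rps3: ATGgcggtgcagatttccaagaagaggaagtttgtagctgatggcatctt
Rpl21: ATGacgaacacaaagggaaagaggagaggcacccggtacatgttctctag
Rps12: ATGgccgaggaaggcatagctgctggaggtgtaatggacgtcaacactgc
The run from Rps3 (chromosome 7, from 99477896 to 99483738, minus strand), which encodes a protein at the entry of the messenger RNA channel of the small subunit, occurred in transcripts of 0 other genes. The run from Rpl21 (chromosome 5, from 146832890 to 146837032, plus strand), a large subunit gene, occurred in 18 other annotated genes, and the run from Rps12 (chromosome 10, from 23785183 to 23787275, minus strand), a small subunit gene, in 9.

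Counted levels of the 77 large subunit, small subunit and stalk genes followed this sharing closely. Rps3 (8.09% of its coding 50-base windows found in another gene) had 2553 and 1377 CPM. Rpl21 (all windows shared, with 82 genes) had 22.2 and 9.08 CPM, and Rps12 (all windows shared, with 25 genes) had 5 and 9 reads over the whole of each population. Per kilobase of coding sequence, the 10 genes with under 50% of windows shared had a median level of 1649 CPM in Epcam-positive cells, the 23 genes with 50% to 90% shared had 652, and the 44 genes with 90% or more shared had 62.6. The same medians in Epcam-negative cells were 955, 329 and 43.6. Across the 77 genes the Spearman rho of the shared percentage with the level per kilobase was -0.80 and -0.79, as a description over genes that share libraries. For coding length the rho was -0.07 in both.

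**Figure D1:**
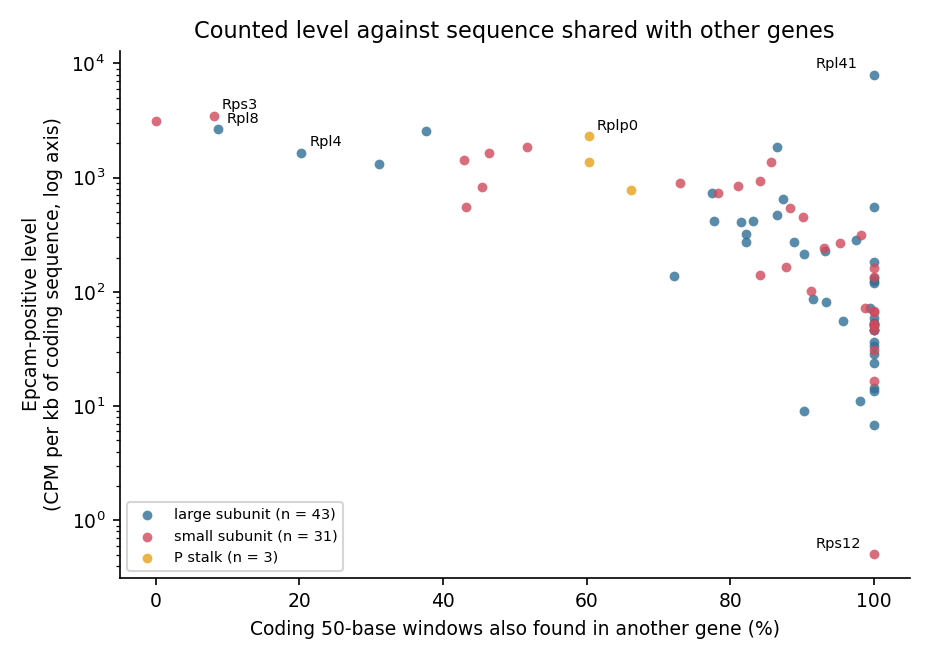
Level of each of the 77 ribosomal protein genes in Epcam-positive cells (CPM per kilobase of coding sequence, log axis) against the percentage of its coding 50-base windows also found in another annotated gene. Genes with under 50% shared sit between 554 and 3502, while those with 90% or more shared spread from 0.508 to 7977, most of them low.

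In 29 of the 77 genes every coding window occurred in another gene, and 5 of the 7 ribosomal protein genes under 10 CPM in both populations (Rpl23a, Rpl24, Rpl28, Rpl29, Rpl36, Rps12 and Rps29) belonged to those 29. Comparisons of level between these genes therefore hold only for counted reads, and a low count of Rps12 or Rpl21 is not a measure of how much of that message the cells held. The 280 pseudogenes with -ps symbols took up 0.0118% and 0.00694% of gene reads. Exons of 8 of the 77 genes, and 11 of the 93 members, overlap another gene, and without the strand setting their reads cannot be assigned with certainty.

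Summed over the cells, ribosomal protein genes took a larger share of reads in Epcam-positive than in Epcam-negative cells. They held 609861 of 24840769 gene reads in the Epcam-positive population, or 2.46% (95% Clopper-Pearson interval 2.45 to 2.46), and 1462697 of 107313931 in the Epcam-negative population, or 1.36% (1.36 to 1.37). The log2 ratio of the shares, Epcam-negative over Epcam-positive, was -0.85 (-0.85 to -0.84), a share 1.80-fold higher in Epcam-positive cells. These intervals cover counting error only, since without molecular identifiers several reads can come from 1 molecule. The shares were 2.44% and 1.42% in plate columns 1 to 12, against 2.48% and 1.28% in the columns from 13 to 24.

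Cell by cell, the populations overlapped but were far apart in their centres. Epcam-positive cells ran from 1.37% to 6.12% with a median of 2.39% (quartiles 2.02 and 2.78). Epcam-negative cells ran from 0.421% to 12.7% with a median of 1.20% (quartiles 0.894 and 1.70). No Epcam-positive cell (0 of 62) lay below the Epcam-negative median. Of the Epcam-negative cells, 92.8% lay below the Epcam-positive median and 60.1% below the lowest Epcam-positive cell, while 2 lay above the highest one. The medians of the 3 Epcam-positive plate rows were 2.32% to 2.68%, and those of the 13 Epcam-negative rows 1.02% to 1.47%, so the row medians of the sorts did not overlap.

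**Figure D2:**
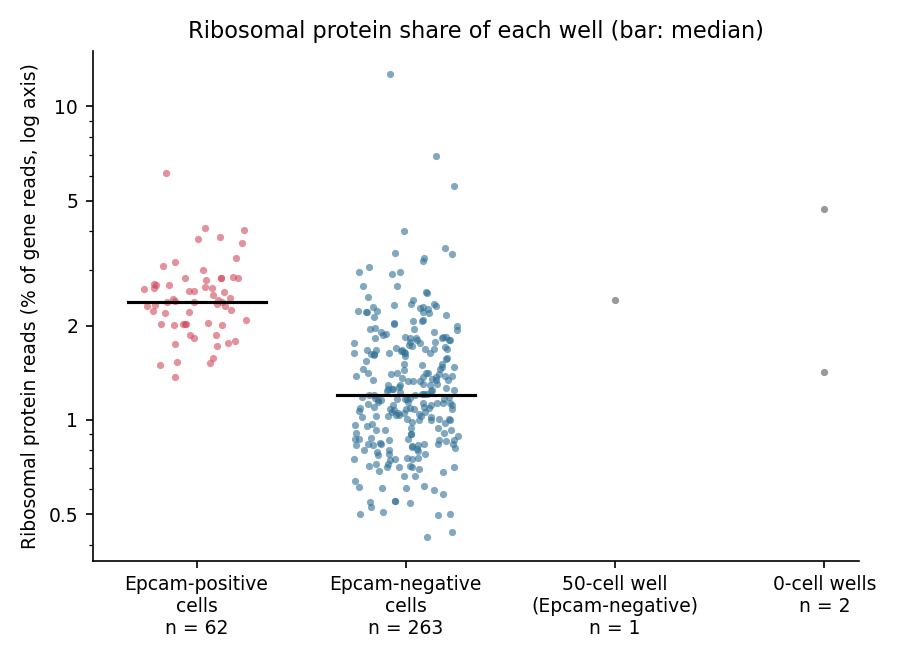
Share of gene reads from the 93 ribosomal protein genes in each well (log axis), with bars at the medians of the kept cells. The 62 Epcam-positive cells centre on 2.39% and the Epcam-negative cells on 1.20%, and the control wells are drawn as single points.

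In the cells of the upper tail no single member made up most of the share. The Epcam-negative cell with 12.7% had 160979 gene reads, and its leading member, the stalk base gene Rplp0, made up 12.04% of its ribosomal protein reads. The next, with 6.95%, had 2480 genes with a read, the fewest of the kept Epcam-negative cells, and was led by Rpl4 (13.9% of its ribosomal protein reads). The highest Epcam-positive cell, with 6.12%, also had the fewest genes of its population (3498), with Rpl4 at 10.9% of its ribosomal protein reads. Without the highest cell of each population the summed shares were 2.42% and 1.35%.

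The 3 control wells differed in their shares. The well with 50 cells, labelled Epcam-negative and with 0 Epcam reads and 6650 CPM of Vim, had 2.41% of its 154897 gene reads in ribosomal protein genes (2.34 to 2.49), near the Epcam-positive median. The library labelled as a 0-cell well in row B had 99241 gene reads from 8248 genes and held 4.71% ribosomal protein reads (4.57 to 4.84). Its Epcam (695 CPM) and Krt14 (9029 CPM) levels go against an empty well. The 0-cell well in row E had 4018 gene reads, of which 57 were ribosomal protein reads (1.42%, 1.08 to 1.83), an interval that holds the Epcam-negative median.

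Large and small subunit genes differed between the populations by like amounts. Large subunit genes took 0.992% and 0.549% of reads (log2 ratio -0.85), and small subunit genes 1.09% and 0.593% (-0.88). The 3 stalk genes took 0.295% and 0.170% (-0.79). Relatives and copies, when summed, had a smaller difference, at 0.0683% and 0.0464% (-0.56). They were uneven: Rpl22l1 (-0.18) and Rps27l (-0.49) differed less, while Rpl36al (-0.82) and Rpl7l1 (-0.89) differed about as much as the subunit genes. The ratio of small to large subunit reads was 0.849 and 0.824, with per-cell medians of 0.870 (lowest 0.450, highest 1.22) and 0.832 (lowest 0.386, highest 2.16).

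Gene by gene, the shift was broad and mostly under 2-fold. Genes counted as measured from 10 CPM upward in at least 1 population, a limit that 76 members and 9574 genes in all passed, and the log2 ratio of a gene was that of CPM + 1, Epcam-negative over Epcam-positive. Of the 76 measured members, 75 were lower in Epcam-negative cells (98.7%), where 53.9% of all measured genes were lower, and 1 was higher, where 46.1% were. The median ratio was -0.84, against -0.08 over all measured genes, and the range was -1.30 to 0.23. At 2-fold or more, 14 members (18.4%) were lower, beside 12.9% of all measured genes, and 0 were higher, beside 15.3%. The 2-fold count moved with the processing. It was 6 of 75 in plate columns 1 to 12 (beside 14.5% of all genes measured there) and 34 of 76 in the columns from 13 to 24 (15.1%). It was 5 of 76 with TMM scaling (10.3%) and 57 of 76 with scaling to spike-in reads (23.02%), which moves every gene. In columns 1 to 12 and with TMM, the members thus passed 2-fold less often than all measured genes. All 3 stalk genes, all 29 measured small subunit genes and 37 of 38 measured large subunit genes were lower, and 74 of the 76 members were lower in both groups of plate columns.

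**Figure D3:**
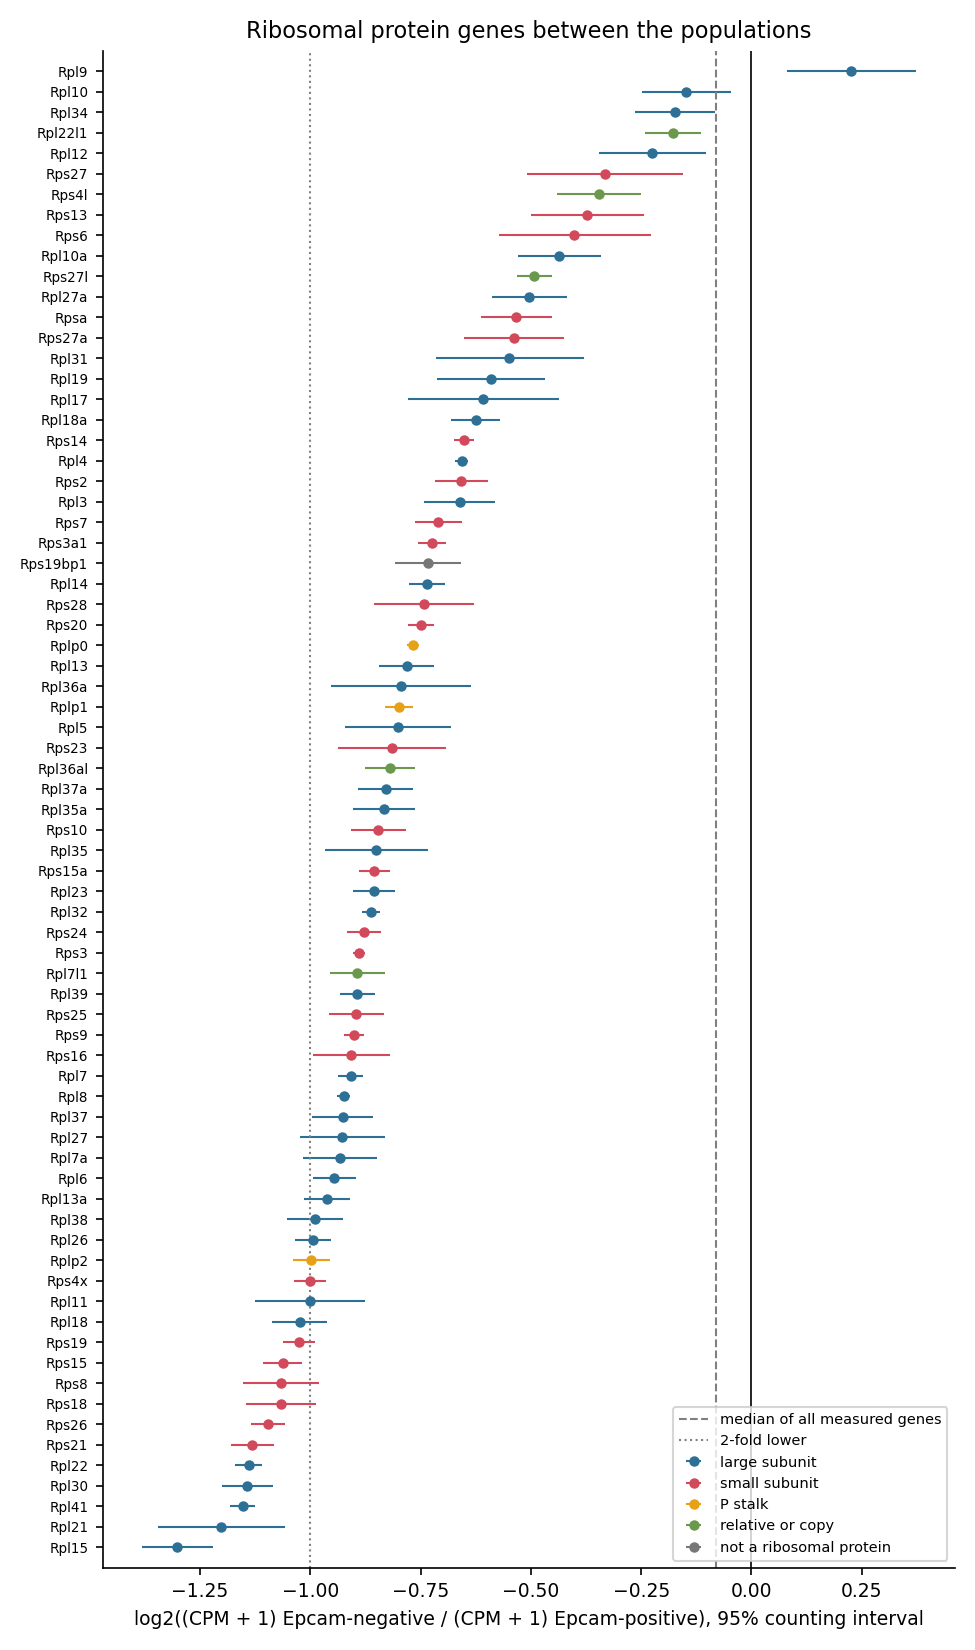
Log2 ratio of CPM + 1, Epcam-negative over Epcam-positive, for 73 of the measured ribosomal protein genes, with its 95% counting interval. Of these, 72 lie below 0, and Rpl9 alone lies above it, at 0.23.

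The members with the most sequence of their own gave the same picture. The 10 genes with under 50% of windows shared (Rpl4, Rpl8, Rpl22, Rpl32, Rps3, Rps9, Rps15 and Rps21 among them) were all lower, with a median ratio of -0.93, and took 1.22% and 0.663% of reads. The medians were -0.86 for the 23 genes with 50% to 90% shared and -0.79 for the 37 measured genes with 90% or more. Among genes with at least 100 CPM in both populations, 28 of 28 members were lower with a median of -0.90, while 62.2% of all 1429 such genes were lower and their median was -0.18.

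Among the small subunit genes, Rps3 had the highest counted level per coding kilobase, 3502 and 1889 CPM. In single cells its CPM ran from 648 through a median of 2430 to 5302 in the Epcam-positive population, and from 14.6 through 1209 to 10821 in the other. The cells overlapped, and the summed log2 ratio was -0.89. Rps14, a protein of the small subunit platform (chromosome 18, from 60747098 to 60778546), ran from 282.7 through 766 to 2588 CPM against 121.3 through 479 to 4796 (-0.65). Rps21 had the lowest ratio of its subunit, 205.5 and 93.3 CPM (-1.13). Rps6, the substrate of the S6 kinases, was counted at only 12.3 and 9.09 CPM, with all of its windows shared with 14 genes. Its ratio was -0.05 in plate columns 1 to 12 but -0.94 in those from 13 to 24.

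Among the large subunit genes, Rpl8, a protein next to the peptidyl transferase centre, ran from 510 through a median of 2040 to 5184 CPM in Epcam-positive cells and from 83.5 through 953 to 8517 CPM in Epcam-negative cells. Its ratio was -0.92. Rpl4, which lines the peptide exit tunnel, ran from 426 through 1845 to 6660 CPM against 18.6 through 1091 to 10169 CPM, and its ratio of -0.66 was among the smaller ones of the abundant members. Rpl32 ran from 268.9 through 961 to 3641 against 61.7 through 491 to 10672 CPM (-0.86), and Rpl39, a small protein in the wall of the exit tunnel, from 87.4 through 270 to 1053 against 8.03 through 138.2 to 1907 CPM (-0.89). Rpl41, the shortest member, had 598 and 268.5 CPM in the summed populations (-1.15). Its level of 7977 per coding kilobase is overstated, since only 75 of its bases are coding, and over the whole transcript it was 1100 CPM per kilobase. Rpl17 and Rpl5 (a member of the 5S particle that binds Mdm2) were counted low, at 13.1 and 8.24 CPM and at 29.9 and 16.7 CPM, with all windows shared.

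The largest differences were those of Rpl15, Rpl21, Rpl41, Rpl30, Rpl22 and Rps21. Rpl15 had 76.8 and 30.6 CPM (ratio -1.30, counting interval -1.38 to -1.22), with cell medians of 40.9 and 14.3 CPM and cells at 0 in both. All of its windows are shared with 23 genes. Rpl30, whose yeast counterpart binds its own transcript, had 145.5 and 65.4 CPM (-1.14). Rpl22, which has 31% of its windows shared and so a better defined count, had 508 and 230 CPM (-1.14), running over cells from 68.96 through 475 to 2049 CPM and from 0 through 195.9 to 2621 CPM.

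The 6 members with the highest ratios were Rpl9, Rpl10, Rpl34, Rpl22l1, Rpl12 and Rps27, and for 4 of them (Rpl9, Rpl10, Rpl12 and Rps27) all windows are shared. Rpl9 had 16.4 and 19.3 CPM (0.23, 0.08 to 0.37), but 0.82 in plate columns 1 to 12 against -0.24 in the others. It thus had no direction common to both groups of columns. Rpl10, which completes the peptidyl transferase centre late in assembly, had 37.8 and 34.02 CPM (-0.15). Rpl34 had 48.8 and 43.2 CPM (-0.17), Rpl12 of the stalk base 26.2 and 22.2 CPM (-0.23), and Rps27 11.6 and 9.002 CPM (-0.33).

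The stalk genes were even in their differences. Rplp0, the stalk base, ran from 866 through a median of 2061 to 4170 CPM in Epcam-positive cells and from 121.4 through 1076 to 15300.1 CPM in Epcam-negative cells (ratio -0.77). Rplp1 had 472 and 270.9 CPM (-0.80), and Rplp2 270.6 and 135.04 CPM (just under 2-fold, -0.998). The order of the members by CPM was nearly the same in both populations (Spearman rho 0.99 over the 77 genes). The 5 with the most reads, Rps3, Rplp0, Rpl4 and Rpl8 among them, made up 45.4% and 46.3% of the reads of the 77.

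Several ribosomal proteins have a relative that can stand in their place. The split of counted reads within these pairs differed most between the populations for Rpl22 and Rpl22l1. Rpl22l1, the relative of Rpl22, made up 16.7% of the reads of its pair in Epcam-positive cells (Clopper-Pearson 16.1 to 17.3) and 28.1% in Epcam-negative cells (27.6 to 28.6). Rpl22l1 itself stood at 101.9 and 89.9 CPM, with cell medians of 74.4 and 75.03 CPM, and Rpl22 was the member of the pair with the larger difference. The ratio of Rpl22l1 was -0.18, with 0.02 in plate columns 1 to 12 against -0.41 in the others. Of its coding windows 84.2% are shared, with 4 other genes, and it overlaps 1 other gene. Its count, and so the split of the pair, is therefore less well defined than the count of Rpl22. Across cells the levels of Rpl22 and Rpl22l1 had a Spearman rho of -0.04 in the 62 Epcam-positive cells and 0.19 in the Epcam-negative ones. Rpl7l1, named for its likeness to Rpl7, made up 16.2% of its pair in both populations.

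In the pairs Rps27 and Rps27l, and Rpl36a and Rpl36al, nearly all counted reads belonged to the relative. Rps27l made up 95.9% and 95.5% of its pair, at 270.1 and 191.7 CPM (-0.49), and Rpl36al 89.8% and 89.99%, at 141.7 and 79.8 CPM. The coding sequences of Rps27 and Rps27l, a p53-responsive gene, are shown without the stop codon because they decide whether a read can be told apart, with capitals at the bases that differ.
Rps27: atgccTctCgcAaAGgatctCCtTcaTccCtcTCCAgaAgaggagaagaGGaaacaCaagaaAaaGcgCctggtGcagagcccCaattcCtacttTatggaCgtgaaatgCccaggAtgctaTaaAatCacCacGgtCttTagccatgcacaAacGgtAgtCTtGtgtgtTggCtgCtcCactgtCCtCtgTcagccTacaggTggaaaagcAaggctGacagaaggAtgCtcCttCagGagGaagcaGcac
Rps27l: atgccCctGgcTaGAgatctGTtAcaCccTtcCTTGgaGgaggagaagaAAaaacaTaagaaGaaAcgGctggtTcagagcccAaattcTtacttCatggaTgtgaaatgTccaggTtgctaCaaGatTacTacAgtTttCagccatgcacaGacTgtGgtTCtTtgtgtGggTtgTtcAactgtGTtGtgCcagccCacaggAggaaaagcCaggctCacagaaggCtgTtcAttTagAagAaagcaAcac
The sequences differ at 60 bases (76.2% identical), and their longest identical run is 11 bases, so a read from within the coding sequence carries differences between them. The coding windows of Rps27, however, all occur in at least 1 of 9 other genes, while 48.3% of those of Rps27l do. The low count of Rps27 beside Rps27l therefore does not measure the balance of the proteins' messages. Nor do the counts of Rpl36a and Rpl36al, since 100% of the coding windows of each are shared, with 9 and 3 other genes. Rpl39l and Rpl3l, relatives known from testis and from muscle, had 0 reads each in the Epcam-positive cells and 24 and 1 reads in the Epcam-negative cells, the 24 of Rpl39l all in 1 cell. A count of 0 allows a share of their pairs of up to 0.0521% and 0.221% (upper Clopper-Pearson bounds). Rpl10l, another testis gene, had 0 reads in both.

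The relation of the ribosomal protein share to how much RNA a cell gave was weak and, in Epcam-negative cells, depended on which cells were kept. The number of gene reads for each read of the ERCC spike-in, an RNA mix added to the wells at 1 dilution, served as the RNA content, with medians of 221.1 and 157.2. Across cells the Spearman rho of the share with RNA content was -0.09 in the 62 Epcam-positive cells and 0.10 in the Epcam-negative ones, while Pearson's r on log2 RNA content was -0.26 and -0.18. With no filter on cells rho in the Epcam-negative ones was -0.012, and with a stricter filter it was 0.26. Rank and linear measures differed in sign in Epcam-negative cells. The Epcam-negative cells with the highest shares, 12.7%, 6.95% and 5.58%, had an RNA content of 24.6, 20.7 and 12.1, below the median of 157.2. In the Epcam-positive cells with the highest shares, 6.12%, 4.095% and 4.04%, RNA content was 48.5, 48.8 and 42.98, below the median of 221.1. Low RNA content did not always go with a high share: an Epcam-negative cell with 16.8 had 1.25%. The part of these cells in the difference of sign was not tested. Within each group of plate columns rho was -0.15 and -0.10 for Epcam-positive cells, and 0.09 in both groups for the Epcam-negative ones. The cells share a plate and their library pool, and both measures share the gene reads of a cell.

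Per spike-in read, Epcam-positive cells had a median of 5.25 ribosomal protein reads (0.474 to 14.1) and Epcam-negative cells 1.71 (0.0898 to 18.5). The share had rho of -0.15 and -0.05 with gene reads, and -0.22 and 0.14 with the number of genes with a read.

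The mitochondrial share of reads, a measure often read as a sign of cell quality, moved with the ribosomal protein share in Epcam-negative cells. Its median was 6.32% and 4.36%, and its rho with the ribosomal protein share was 0.03 and 0.40. With the ribosomal protein share taken over non-mitochondrial reads the values were 0.12 and 0.44, and in the Epcam-negative cells of each group of plate columns rho was 0.37 and 0.42. Its part in the difference between the populations was not tested, but with mitochondrial reads left out of the total the shares were 2.62% and 1.43%.

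**Figure D4:**
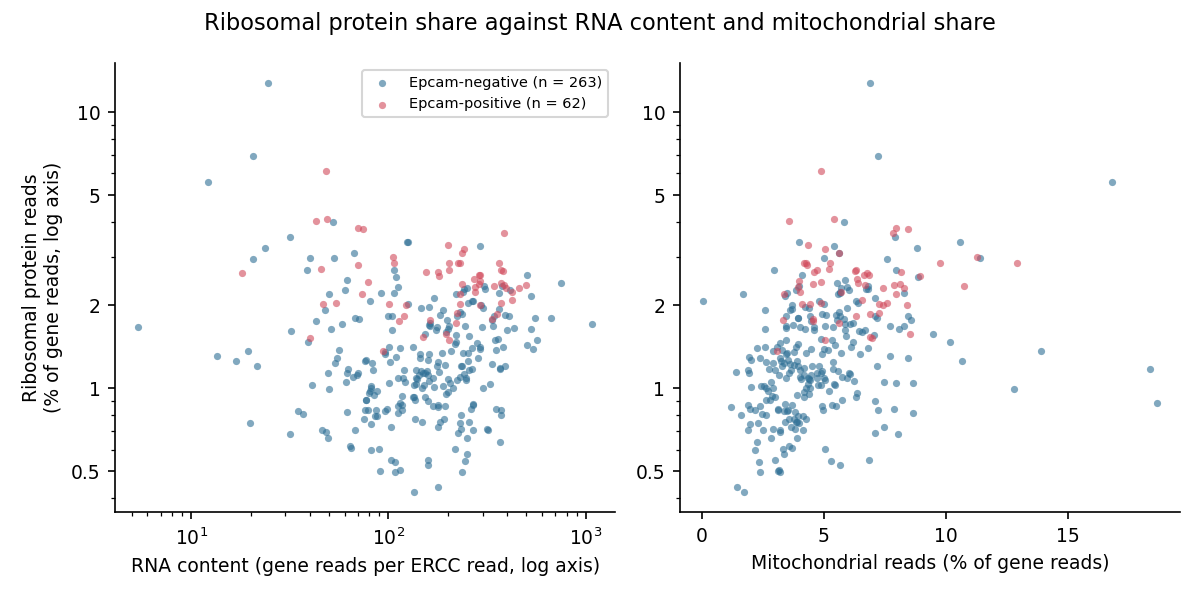
Share of ribosomal protein reads in each kept cell (log axis) against RNA content, in gene reads per spike-in read, and against the mitochondrial percentage of gene reads. The relation with RNA content is weak (rho -0.09 and 0.10), and that with the mitochondrial percentage is weak in Epcam-positive (0.03) and moderate in Epcam-negative cells (0.40).

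Within each population the members varied together from cell to cell, on a scale where all genes share the read total of a cell. For 28 members with at least 100 CPM in both populations, rho of a member with the summed share of the rest had a median of 0.64 in Epcam-positive cells (0.33 to 0.81) and 0.75 in Epcam-negative cells (0.45 to 0.81). All 28 had a rho of 0.2 or more in both, where 12% and 29.4% of 1401 other genes at that level did, with medians of -0.03 and 0.10. Rps26, a protein at the messenger RNA exit, was the closest to the rest in Epcam-positive cells (0.81, and 0.81 in Epcam-negative cells). Rpl32 was the closest in Epcam-negative cells (0.81). Rpl22 (0.33) and Rplp0 (0.39) were the loosest in Epcam-positive cells, and Rps27l (0.45) in Epcam-negative cells.

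The genes outside the list that were most like it, ranked among 1382 genes by the lower of their rho values in the populations, were Rbm3, Cox5a, Rack1, Eif3k, Slc25a5, Eif3i, Btf3 and Atp5d. Rbm3, a cold-induced RNA-binding protein, had rho of 0.48 and 0.52, and Rack1, itself a protein of the small subunit that the symbol rule misses, 0.46 and 0.72. Eif3k and Eif3i belong to the initiation complex eIF3. Btf3 is a subunit of the nascent chain complex at the exit tunnel, and Cox5a, Slc25a5 and Atp5d encode mitochondrial proteins of respiration and nucleotide exchange. Most opposed were Sparc, Igfbp7, C1s1, Laptm4a, Col8a1, Sqstm1, Grn and Ctsc, secreted matrix proteins and proteins of the lysosome and autophagy among them. Sparc had rho of -0.51 and -0.44, and it was higher in Epcam-negative cells (8868 against 1730 CPM).

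Other proteins of the ribosome and of translation were also lower in Epcam-negative cells. The counts that follow stand beside 53.9% of all measured genes that were lower, and 12.9% that were lower by 2-fold or more. Fau, which encodes a small subunit protein fused to a ubiquitin-like sequence, stood at 39.01 and 22.2 CPM (-0.79), and Rack1 at 1761 and 1091 CPM (-0.69). All 6 measured elongation factors were lower (median -0.62), Eef1a1, which brings aminoacyl-tRNA to the ribosome, with 2177 and 1502 CPM (-0.54) and Eef2, the translocase, with 1169 and 757 CPM (-0.63). Of 25 initiation factors 22 were lower (median -0.45), with Eif3f at 649 and 346 CPM (-0.91) and the exceptions Eif4e (0.00), Eif5 (0.13) and Eif4a2 (0.42). None of the members of these lists passed 2-fold. Summed over the list, elongation factors had rho of 0.61 and 0.85 with the ribosomal protein share, and initiation factors 0.47 and 0.71.

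Messages with a TOP start outside the ribosome were lower in 6 of 7 cases (median -0.52), among them the nascent chain gene Naca (-0.96) and Npm1, a nucleolar chaperone, at 814 and 567 CPM (-0.52). The seventh, Vim, was higher (3.29). Ribosome biogenesis factors were lower in 34 of 35 cases, with a median of -0.58, and 4 of them (Bysl, Nle1, Nhp2 and Rrp12, 11.4%) by 2-fold or more, near the 12.9% of all measured genes. Of 10 genes of RNA polymerase I, which transcribes ribosomal RNA, and its factors, 7 were lower (70%, beside 53.9% of all measured genes). By 2-fold or more 3 were lower (30%, beside 12.9%): Polr1d and Polr1c, subunits shared with RNA polymerase III (Polr1d 288.5 and 99.9 CPM, -1.52, and Polr1c -1.10), and Taf1b (-1.16). Ubtf, which binds the ribosomal RNA gene promoter, stood at 38.6 and 53.01 CPM (0.45). Mitochondrial ribosomal protein genes, which serve another ribosome, were lower in 72 of 75 cases with a median of -0.60, and 4 of them (5.33%) by 2-fold or more (Mrpl49 56.2 and 19.95 CPM, -1.45).

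Genes of the signalling that controls TOP messages showed no common direction. Of 13 measured mTOR and Larp genes 8 were lower (61.5%, beside 53.9% of all measured genes) and 5 higher (median -0.06), none by 2-fold. They ran from Rps6kb2 (-0.68) to Rptor, the defining subunit of mTORC1, at 11.8 and 24.2 CPM (0.98). Myc, a transcription factor known to drive ribosome production, was higher in Epcam-negative cells, with 106.5 and 275.1 CPM (1.36), and the median of the 5 measured genes of its network was 0.04. Of these 4 were higher, beside 46.1% of all measured genes, with Mxd4 at 0.95 but Mxd1 at 0.040 and Mxi1 at 0.027. Across cells the summed level of that network had rho of 0.06 and -0.22 with the ribosomal protein share.

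**Figure D5:**
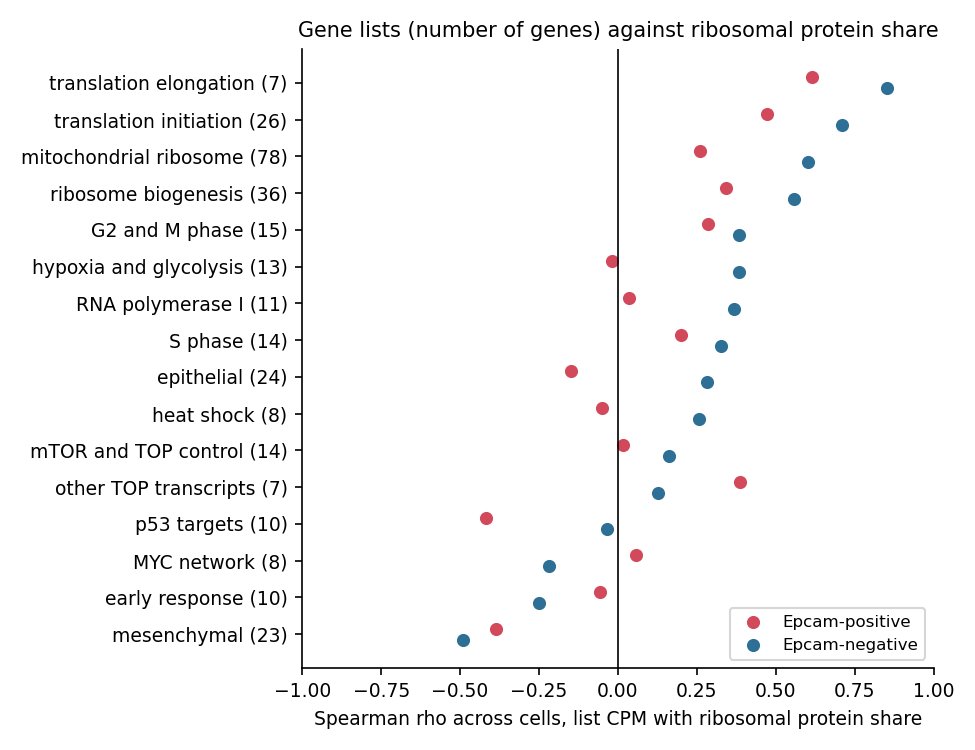
Spearman rho across cells, within each population, of the summed CPM of each gene list with the ribosomal protein share. Elongation factors have the highest rho in both populations (0.61 and 0.85). The lowest is that of p53 targets in Epcam-positive cells (-0.42) and of mesenchymal genes in Epcam-negative cells (-0.49).

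Cell state lists moved with the share to differing extents. The counts that follow stand beside 53.9% of all measured genes that were lower in Epcam-negative cells and 46.1% that were higher. By 2-fold or more 15.3% of all measured genes were higher. Genes of S phase (13 measured, all lower in Epcam-negative cells, median -1.05) had rho of 0.20 and 0.33 with the ribosomal protein share, and those of G2 and M phase (15 measured, all lower, median -1.07) 0.29 and 0.38. Mesenchymal genes (22 measured, all higher by 2-fold or more, median 5.03) had rho of -0.39 and -0.49. Epithelial genes (21 measured, all lower, median -3.23) had -0.15 and 0.28, and the sum of the keratinocyte markers -0.10 and 0.35. Both of these lists hold Epcam, the gene of the protein used for sorting. The summed fibroblast markers, which tumour cells with mesenchymal traits can also express, stood at 428 and 4172 CPM, with rho of -0.15 and -0.38. Different genes led these sums: Ly6c1 (327 and 77.4 CPM) in Epcam-positive cells and Dcn (81.3 and 3620 CPM) in Epcam-negative cells. Of the 5 measured markers, 4 were higher in Epcam-negative cells and 1, Ly6c1, was lower. Immune markers had rho of -0.15 and -0.01. Whether these lists have a part in the lower share of ribosomal protein reads in Epcam-negative cells was not tested. Immediate early genes (9 of 10 higher in Epcam-negative cells, beside 46.1% of all measured genes, median 0.64) had rho of -0.06 and -0.25. The p53 targets (6 of 9 lower, or 66.7%, beside 53.9% of all measured genes, median -0.30) had -0.42 and -0.03. The donors carried p53fl/fl, and whether p53 was active in these cells was not tested.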

How the data were processed

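The labels describe 383 wells of single cells and controls. The values deposited are raw read counts, a row per gene or spike-in and a column per well. The submitters' processing notes name cutadapt 1.13, STAR 2.5.2b and HTSeq 0.6.0 and the mouse build GRCm38. The annotation release, the strand setting and the treatment of reads with several matches were not given in the sources used here. GENCODE vM21 gave a symbol to 49326 identifiers, matched without version, and none to 259. The table also held 92 spike-ins.

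Kept cells had 100000 or more gene reads, 2000 or more genes detected, no more than 20% mitochondrial reads, and spike-in reads making up no more than 50% of the total. This left out 8 Epcam-positive and 47 Epcam-negative cells. No doublet caller was run, since the labels describe sorting of 1 cell per well. Each population's counts were summed and scaled to CPM. Ratios are log2 of CPM + 1 over CPM + 1, with conditional binomial 95% intervals. The code was run on simulated counts that held counting error only, the error these intervals assume. That run therefore says nothing of amplification or of differences between cells. Shared windows are exact 50-base matches, on either strand, to a transcript of another gene, taken over the coding part of the shortest of the best-ranked APPRIS principal transcripts. Correlations are given without p-values. With 1 sample per population no test was made. Alternatives changed the cell filter, the scaling (TMM from edgeR 4.0.16, median of ratios, spike-in reads), the pseudocount, the plate columns, the members and the cells. Tables were made with Python 3.11.15, pandas 2.3.3 and scipy 1.17.1.

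The members and gene lists were chosen with earlier results of these data known. The text names the 8 members with the highest and the 4 with the lowest level per kilobase, the 6 highest and 6 lowest ratios among members with at least 10 CPM, the close relatives, and the 8 genes most like and 8 most opposed to the share. Some genes under these rules are not reported here. Other genes, such as Rpl4 and Rplp1 and the genes of other lists, were picked after their values were seen.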

Additional observations from a re-analysis of the deposited data

How the results depend on the processing

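No paired analysis was possible because the labels give no replicate numbers and each population is 1 sample. For the same reason no replicate could be left out. The share of ribosomal protein reads stayed higher in Epcam-positive than in Epcam-negative cells under each alternative run: 2.41% and 1.31% with a stricter cell filter, 2.62% and 1.43% without mitochondrial reads, 2.44% and 1.42% with plate columns 1 to 12 alone, 2.48% and 1.28% with the columns from 13 to 24 (log2 ratio -0.96), 2.50% and 1.44% as the mean of cells, 2.39% and 1.32% without relatives and low members but with the -ps pseudogenes, 2.42% and 1.35% without the highest cell, and 1.22% and 0.663% over members with under 50% of windows shared. Without a cell filter the Epcam-negative share was 1.39%. Leaving out the highest cell, the choice of members with under 50% shared, and the omission of the 2 cells farthest from the median RNA content, were added after the data were seen. The median ratio of the members was -0.73 in columns 1 to 12, -0.98 in columns 13 to 24, -0.71 with TMM, -0.73 with median of ratios, -1.18 with spike-in scaling, -0.75 with a pseudocount of 10 CPM and -0.93 over the members with under 50% shared (10 of 10 lower). Spike-in scaling moved the median of all measured genes from -0.08 to -0.45, and TMM and median of ratios to 0.06 and 0.04, so relative to that median the members were lower under each. The number lower by 2-fold or more was, in the same order, 6 of 75, 34 of 76, 5 of 76, 6 of 76, 57 of 76, 7 of 76 and 3 of 10. The share of all measured genes lower by 2-fold or more was, in that order, 14.5%, 15.1%, 10.3%, 10.6%, 23.02%, 7.78% and 12.9%. In columns 1 to 12, with TMM and with median of ratios, the members thus passed 2-fold less often than all measured genes. Of 348 values of 29 named members over the 12 alternatives that could change them, 337 were below 0. Of all measured genes, 53.9% were below 0 in the main setting, 47.2% with TMM and 69.7% with spike-in scaling. The 348 values reuse the same reads, and some members were named for their ratios, so they are not separate observations. Rpl22l1 changed sign in columns 1 to 12 (0.020), and Rpl9 in columns 13 to 24 (-0.24) and with spike-in scaling (-0.11), which lowers every gene by about the same amount and so says nothing of Rpl9 itself. In Epcam-negative cells the Spearman rho of the share with RNA content was -0.012 without a cell filter and 0.26 with the stricter one. The causes were not tested. Depth limits the members under 10 CPM, and the sharing of 50-base windows limits every comparison of level between members.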
